A study of Homo sapiens with 6 samples.

Results

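The genes described here are those of cytoplasmic dynein, its partner complex dynactin, and the adaptors and regulators that link the motor to its cargo. They were taken by symbol from a table of 78932 gene rows, and all 34 were found. The table holds poly(A) RNA-seq read counts of 6 libraries from HCC1937, a BRCA1-mutant line from a breast tumour of the triple-negative kind. In 3 libraries the cells had been exposed to docetaxel at 8 nM for 24 h, and 3 were controls, for which no vehicle is named. Docetaxel, a taxane, stabilises microtubules, the tracks on which dynein moves. All cells were of this 1 line, and the labels call the replicates biological without saying whether they were separate cultures or days. The p-values therefore rest on the spread between these libraries only. Of the 34 genes, 33 had enough reads to be tested and 31 averaged at least 100 reads a library. The intermediate chain gene DYNC1I1 was too low to test.

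Cytoplasmic dynein-1 walks towards the minus ends of microtubules, and carries vesicles, organelles and mRNA in interphase and positions spindles, clears checkpoint proteins from kinetochores and focuses spindle poles in mitosis. Its heavy chain holds the ATPase ring and the microtubule-binding stalk, while intermediate, light intermediate and light chains sit on the tail. Dynactin is a short filament of actin-related protein with a shoulder, a pointed-end cap and a barbed-end cap, and an adaptor clamps it to dynein so that the motor becomes processive. LIS1, with NDE1 or NDEL1, helps dynein to assemble with these partners, and dynein-2 is a separate motor for transport within cilia.

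Depth was even, with 38622062 to 41675186 counts per library. Among markers of the line, the keratin genes KRT8 and KRT18 averaged 1965 and 666 CPM, that is counts scaled to 1e6 per library, over all 6 libraries, whereas EPCAM, KRT19, KRT5 and KRT14 averaged 0.0386 to 0.127 CPM and CDH1 0.689 CPM. Whether those low counts come from the cells or from the counting was not tested. Of the 3 line markers with enough reads to test, KRT8 and KRT18 were called higher with docetaxel, at log2 fold changes of 0.23 and 0.15 (edgeR quasi-likelihood test, adjusted p = 3.55e-05 and 0.00597), with 0.13 and 0.04 when offsets for GC content and gene length were used. The call of KRT18 was lost without control replicate 1 or docetaxel replicate 3 (adjusted p = 0.0674 and 0.0786) and with offsets (adjusted p = 0.606). Of the 7 markers of other cell types, PTPRC and CD3E, which define leukocytes and T cells, had 1 and 2 reads in all 6 libraries together. The sum of these 7 markers was 490 to 507 CPM in docetaxel libraries and 514 to 526 CPM in control libraries, most of it from VIM. CD14 was low and was the only one called, at 1.82, 2.65 and 3.08 CPM in docetaxel libraries and 1.62, 1.29 and 1.53 CPM in control libraries (edgeR quasi-likelihood test, adjusted p = 0.0377), a call lost without any library except docetaxel replicate 1 (adjusted p between 0.0567 and 0.227). In a bulk library, fewer cells that use a gene and less of its RNA per cell cannot be told apart.

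Levels within the set spanned a wide range. Compared per length of gene, as TPM (transcripts scaled to a sum of 1e6 per library), the light chain gene DYNLL1 was highest at a mean of 387 TPM over the 6 libraries, followed by the barbed-end cap gene CAPZA1 at 190 TPM, the filament gene ACTR1A at 85.9 TPM and the shoulder gene DCTN3 at 65.5 TPM. The 2 heavy chains were lower, with DYNC1H1 of dynein-1 at 11.0 TPM and DYNC2H1 of dynein-2 at 2.42 TPM. HOOK3 was the lowest adaptor at 2.17 TPM, against 39.9 TPM for SPDL1, the kinetochore adaptor known as Spindly. The length in the table can exceed that of a transcript, and is 9.23 times the longest transcript of GENCODE release 29 for CAPZB, 4.85 times for DCTN2 and 1.94 times for DYNC1H1. The TPM of those genes, such as 22.6 for CAPZB and 37.0 for DCTN2, would be higher on a transcript's length, and the order would change. Per kilobase of the longest transcript, DYNLL1 still led at 295 CPM and CAPZA1 followed at 78.5 CPM, but CAPZB at 74.9 CPM and DCTN2 at 64.2 CPM then stood above ACTR1A at 40.7 CPM and DCTN3 at 29.03 CPM.

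**Figure D1:**
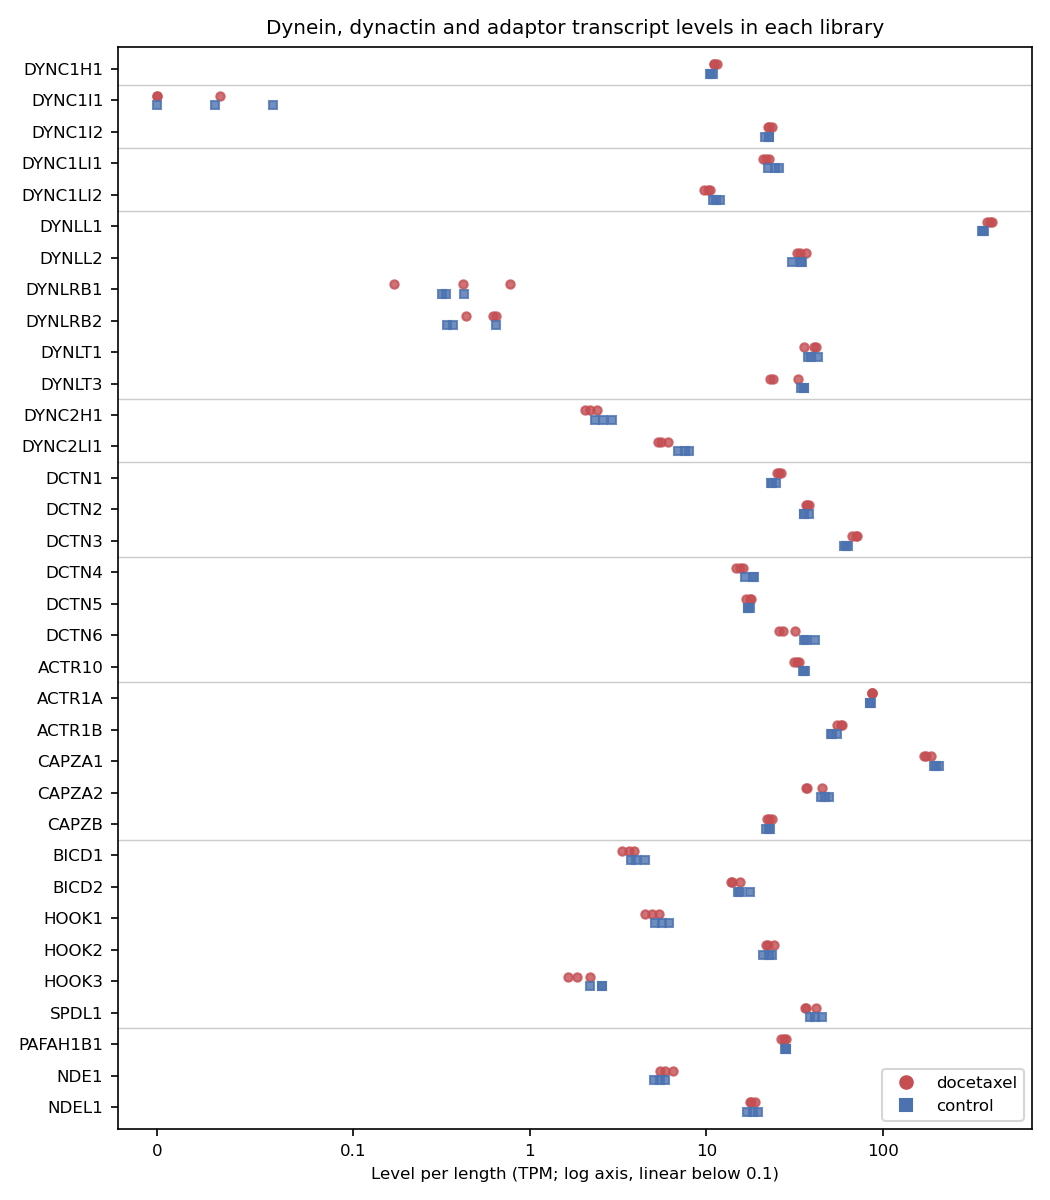
Levels of the 34 genes in each of the 6 libraries as TPM on an axis that is logarithmic above 0.1 and linear below, grouped by role, with docetaxel libraries in one colour and control libraries in the other and every point 1 library. DYNLL1 and CAPZA1 lie highest, DYNLRB1, DYNLRB2 and DYNC1I1 lie near 0, and within a gene the 2 groups lie close together.

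For 3 genes the reads were too few for a change to be read from them. DYNC1I1, the intermediate chain best known from neurons, had 2, 0 and 0 reads in docetaxel libraries and 0, 2 and 4 reads in control libraries. DYNLRB1, a roadblock light chain found in most tissues, had 6, 28 and 15 reads in docetaxel libraries and 12, 16 and 12 reads in control libraries. DYNLRB2, its close relative, had 13, 13 and 9 reads in docetaxel libraries and 7, 14 and 8 reads in control libraries. The groups overlapped for all 3 genes, and the 95% interval of the fold change was 0.568 to 3.03 for DYNLRB1 and 0.533 to 3.14 for DYNLRB2. Whether the low count of DYNLRB1 comes from the cells or from the counting was not tested.

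Docetaxel libraries were compared with control libraries, the 1 contrast of the series. Changes were small and went both ways. Of 33 tested genes, 4 were higher with docetaxel, namely DCTN3, DYNLL1, ACTR1B and DCTN1, and 6 were lower, namely DCTN6, DYNC2LI1, DYNLT3, HOOK3, CAPZA2 and CAPZA1 (edgeR quasi-likelihood test, called at an adjusted p under 0.05). That is 30.3% of the tested genes, where 17.0% of all 18040 tested genes were called, 9.14% higher and 7.82% lower. Most of these genes are well expressed. Among the 31 with at least 100 reads a library on average the share called was 32.3%, against 25.4% of the 11778 genes of the whole table that reach the same depth. The median log2 fold change was 0.02 over the 33 genes and 0.01 over all tested genes. In 14 genes the 3 docetaxel values and the 3 control values did not overlap, 6 higher and 8 lower, which is 42.4% against 32.0% of all tested genes. These 2 shares are not matched for depth, as the share without overlap was not computed for the well-counted genes of the whole table. The largest called changes were to 1.16-fold for DCTN3 and to 0.767-fold for DCTN6. Beside these counts stands a trend with GC content that follows the groups. GC-rich genes had relatively more reads in all 3 docetaxel libraries and fewer in all 3 control libraries. The slopes were fitted to each library's deviation from the mean of all 6 libraries, so they are relative to that mean. They were 0.05 to 0.0984 log2 per 10 percentage points of GC content with docetaxel and -0.125 to -0.0535 in controls. As the trend goes with treatment, a response to the drug and a technical difference cannot be told apart. Offsets for GC content would take out either. When the fit carried offsets for GC content and gene length, 3 of the 33 genes were called higher, DCTN3, DYNC1I2 and PAFAH1B1, and 0 lower. With the same offsets 4.26% of all tested genes were called, 2.47% higher and 1.79% lower.

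**Figure D2:**
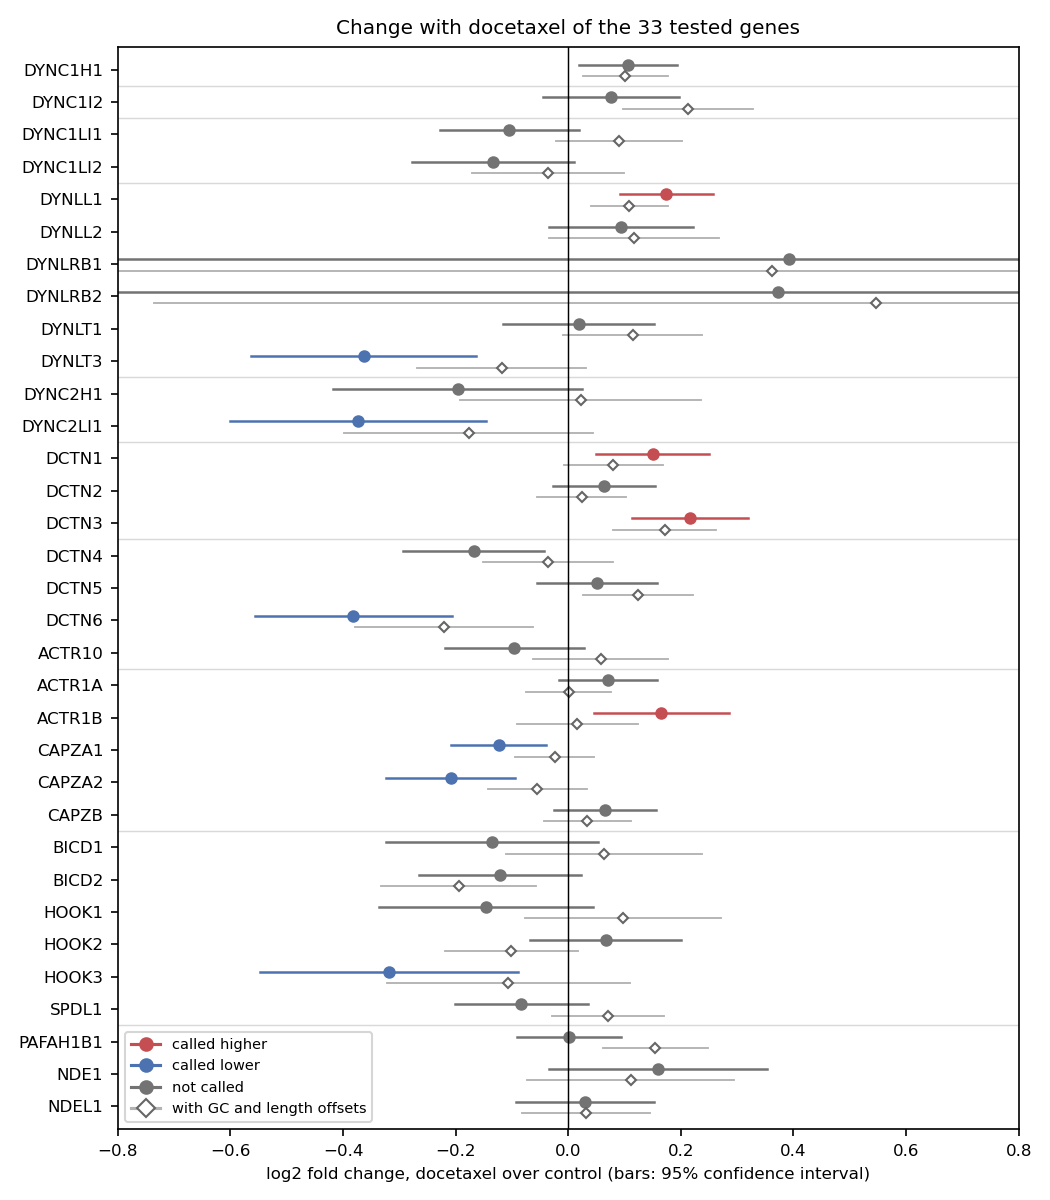
The log2 fold change of docetaxel over control for the 33 tested genes, ordered by role from dynein-1 through dynactin to adaptors and regulators, with 95% confidence intervals as bars; filled points are the fit without offsets, coloured by call, and open diamonds the fit with GC and length offsets. The intervals of DYNLRB1 and DYNLRB2 run past the axis, called genes lie between -0.38 and 0.22, and all 6 genes called lower move towards 0 with offsets.

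In the dynein-1 motor itself, no heavy, intermediate or light intermediate chain was called without offsets. DYNC1H1, the heavy chain (chromosome 14, 101964510 to 102056443, plus strand, GRCh38), had 154, 160.2 and 161 CPM in docetaxel libraries, against 145, 148 and 148 CPM in control libraries. The groups did not overlap, but the 1.08-fold difference (95% interval 1.01 to 1.14) missed the threshold, at an adjusted p of 0.0849 in edgeR's test and 0.118 with offsets. DYNC1I2, the intermediate chain that these cells express, had 51.3, 56.0 and 52.6 CPM in docetaxel libraries and 49.0, 50.5 and 52.1 CPM in control libraries. Its groups overlapped, and its log2 fold change was 0.08 without offsets (edgeR adjusted p = 0.445) and 0.21 with them (edgeR adjusted p = 0.0225). That call was lost without control replicate 1 or 2 or docetaxel replicate 2 or 3, at adjusted p values between 0.0809 and 0.174. A pseudogene named after DYNC1I2 had 515 reads in all, beside 12367 for the gene, so some reads may be shared between them. The light intermediate chains, which bind the adaptors, were not called. DYNC1LI2 had 29.4, 29.04 and 30.7 CPM in docetaxel libraries, each below the 31.4, 33.5 and 32.9 CPM of control libraries (0.911-fold, 0.825 to 1.01, edgeR adjusted p = 0.216). DYNC1LI1 overlapped between the groups at 0.930-fold (0.853 to 1.01, edgeR adjusted p = 0.27).

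The light chains split. DYNLL1 (LC8, a dimeric hub protein that binds many partners besides dynein) had 409, 453 and 432 CPM in docetaxel libraries, against 389, 376 and 383 CPM in control libraries. Every docetaxel value lay above every control value, and the gene rose 1.13-fold, or 0.17 ± 0.041 (SE) on the log2 scale (edgeR adjusted p = 0.00285). The gene lies on chromosome 12, 120469850 to 120498493, plus strand. The call held without each library in turn (edgeR adjusted p between 0.00101 and 0.0369) and missed the threshold with offsets, at a log2 fold change of 0.11 (edgeR adjusted p = 0.056). DYNLL2, the other LC8 gene, overlapped between groups at 1.07-fold (0.976 to 1.17, edgeR adjusted p = 0.357).

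DYNLT3, a Tctex-type light chain (chromosome X, 37836757 to 37847637, minus strand), had 36.8, 26.7 and 27.1 CPM in docetaxel libraries, against 39.5, 38.8 and 38.3 CPM in control libraries. Docetaxel replicate 1 stood near the controls and the other 2 well below them, and the gene fell to 0.777-fold, or -0.36 ± 0.095 (SE) on the log2 scale (edgeR adjusted p = 0.0122). Without docetaxel replicate 1 the log2 fold change was -0.55 (edgeR adjusted p = 4.08e-06), and without control replicate 2 or docetaxel replicate 3 the call was lost at adjusted p values of 0.0999 and 0.0727. DYNLT3 has the lowest GC content of the set among tested genes, 34.6%, and with offsets its log2 fold change was -0.12 (edgeR adjusted p = 0.466). With offsets and without docetaxel replicate 1 it was -0.23, and called (edgeR adjusted p = 0.0415). DYNLT1, the other Tctex-type chain, had 43.9, 39.3 and 43.6 CPM in docetaxel libraries and 41.1, 44.0 and 40.0 CPM in control libraries, which overlapped (1.01-fold, 0.923 to 1.11).

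Among the dynein-2 chains, DYNC2LI1, the light intermediate chain of the ciliary motor (chromosome 2, 43774039 to 43810010, plus strand), had 9.10, 9.08 and 10.1 CPM in docetaxel libraries, against 12.4, 12.8 and 11.4 CPM in control libraries. The groups did not overlap, and it fell to 0.772-fold, or -0.37 ± 0.112 (SE) on the log2 scale (edgeR adjusted p = 0.0175). The call was lost without control replicate 1 or 2 or docetaxel replicate 2, at adjusted p values of 0.0536, 0.0881 and 0.0619, and with offsets, at a log2 fold change of -0.18 (adjusted p = 0.459). DYNC2H1, its heavy chain, was at 0.873-fold (0.749 to 1.02, edgeR adjusted p = 0.24) with overlapping groups, and its log2 fold change of -0.20 turned to 0.02 with offsets.

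In dynactin, 2 of the 3 shoulder and sidearm genes were called higher, DCTN3 and DCTN1, and 1 of them, DCTN3, was called with offsets. That is 66.7%, but of only 3 genes, where 9.14% of all tested genes were called higher. DCTN3 (p24, chromosome 9, 34613545 to 34620523, minus strand) had 89.0, 97.5 and 97.1 CPM in docetaxel libraries, against 81.4, 82.3 and 80.4 CPM in control libraries. The control values lay within 2 CPM of each other and every docetaxel value lay above them, and the gene rose 1.16-fold, or 0.22 ± 0.051 (SE) on the log2 scale (edgeR adjusted p = 0.00284). The call held without each library in turn, with adjusted p values up to 0.0341, and with offsets, at a log2 fold change of 0.17 (edgeR adjusted p = 0.0203). It was the only gene of the set called both with and without offsets. The call with offsets did not hold without control replicate 1, 2 or 3 or docetaxel replicate 2 or 3, where adjusted p values lay between 0.0669 and 0.128.

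DCTN1 (p150Glued, the microtubule-binding sidearm, chromosome 2, 74361154 to 74392087, minus strand) had 95.8, 97.8 and 100.1 CPM in docetaxel libraries, against 91.8, 85.1 and 87.7 CPM in control libraries. The groups did not overlap, and it rose 1.11-fold, or 0.15 ± 0.049 (SE) on the log2 scale (edgeR adjusted p = 0.0312). Its call was lost without control replicate 2 or 3 or any docetaxel replicate, with adjusted p values between 0.0559 and 0.145, and with offsets (log2 fold change 0.08, adjusted p = 0.374). DCTN2 (p50 dynamitin, whose excess takes dynactin apart) overlapped between groups at 1.05-fold (0.982 to 1.11, edgeR adjusted p = 0.379).

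Of the 4 pointed-end genes, which cap the filament and contact adaptors, DCTN6 (p27, chromosome 8, 30156297 to 30183640, plus strand) fell furthest. It had 22.4, 19.9 and 18.3 CPM in docetaxel libraries, against 24.7, 28.2 and 26.0 CPM in control libraries, and the groups did not overlap. That is 0.767-fold, or -0.38 ± 0.086 (SE) on the log2 scale (edgeR adjusted p = 0.00203), and the call held without each library in turn, with adjusted p values up to 0.0362. With offsets it was -0.22 and missed the threshold (edgeR adjusted p = 0.105), which it passed when docetaxel replicate 1 was also left out (adjusted p = 0.0375). In GENCODE release 29, DCTN6 shares 25.3% of its exon bases with LEPROTL1 and an antisense gene, so its reads cannot be fully told apart from theirs. DCTN4 (p62) had 46.0, 43.8 and 45.1 CPM in docetaxel libraries, all below the 52.9, 51.0 and 47.7 CPM of control libraries, at 0.890-fold (0.816 to 0.970), and missed the threshold (edgeR adjusted p = 0.055). It was called without control replicate 3 (adjusted p = 0.0458), without docetaxel replicate 1 (adjusted p = 0.0331) and by DESeq2 (adjusted p = 0.0284). With offsets its log2 fold change was -0.04 instead of -0.17 (edgeR adjusted p = 0.841). ACTR10 (Arp11) also did not overlap, with 45.3, 49.0 and 48.9 CPM in docetaxel libraries and 51.1, 49.2 and 52.6 CPM in control libraries, and was not called (0.936-fold, 0.859 to 1.02, edgeR adjusted p = 0.323). DCTN5 (p25) was at 1.04-fold (0.962 to 1.12).

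The filament and its barbed-end cap moved in both directions. ACTR1B (Arp1B, chromosome 2, 97655963 to 97664107, minus strand) had 58.7, 58.4 and 60.8 CPM in docetaxel libraries, against 52.0, 50.1 and 56.5 CPM in control libraries. It rose 1.12-fold, or 0.17 ± 0.059 (SE) on the log2 scale (edgeR adjusted p = 0.0488), with no overlap between groups. The call was lost without control replicate 1 or 2 or any docetaxel replicate, with adjusted p values between 0.103 and 0.216, and with offsets its log2 fold change was 0.02 (adjusted p = 0.937). ACTR1A, which encodes the more abundant Arp1 of these cells, had 145, 149 and 147 CPM in docetaxel libraries, just above the 142, 137 and 142 CPM of control libraries (1.05-fold, 0.988 to 1.12, edgeR adjusted p = 0.3).

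CAPZA2, which encodes an α subunit of the actin capping protein that is also dynactin's barbed-end cap (chromosome 7, 116811070 to 116922049, plus strand), had 134, 114 and 112 CPM in docetaxel libraries, against 139, 144 and 134 CPM in control libraries. Docetaxel replicate 1 lay within the control values, so the groups overlapped, and the fitted change was 0.865-fold, or -0.21 ± 0.056 (SE) on the log2 scale (edgeR adjusted p = 0.00998). Without docetaxel replicate 1 it was -0.32 (edgeR adjusted p = 3.03e-05), and without control replicate 2, docetaxel replicate 2 or docetaxel replicate 3 the call was lost at adjusted p values of 0.106, 0.0524 and 0.1. CAPZA1, the more abundant α subunit (chromosome 1, 112619173 to 112671619, plus strand), had 235, 223 and 223 CPM in docetaxel libraries, against 240, 252 and 251 CPM in control libraries. Its groups did not overlap, and it fell to 0.918-fold, or -0.12 ± 0.042 (SE) on the log2 scale (edgeR adjusted p = 0.0353). That call was lost without control replicate 2 or 3 or docetaxel replicate 2 or 3, with adjusted p values between 0.0875 and 0.173. With offsets the log2 fold changes were -0.06 for CAPZA2 and -0.02 for CAPZA1 (edgeR adjusted p = 0.606 and 0.822). CAPZB, their β partner, was at 1.05-fold (0.983 to 1.11). CAPZA1 shares 15.1% of its exon bases with ST7L on the other strand, and the strand setting of the counting is not given in the sources used here.

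**Figure D3:**
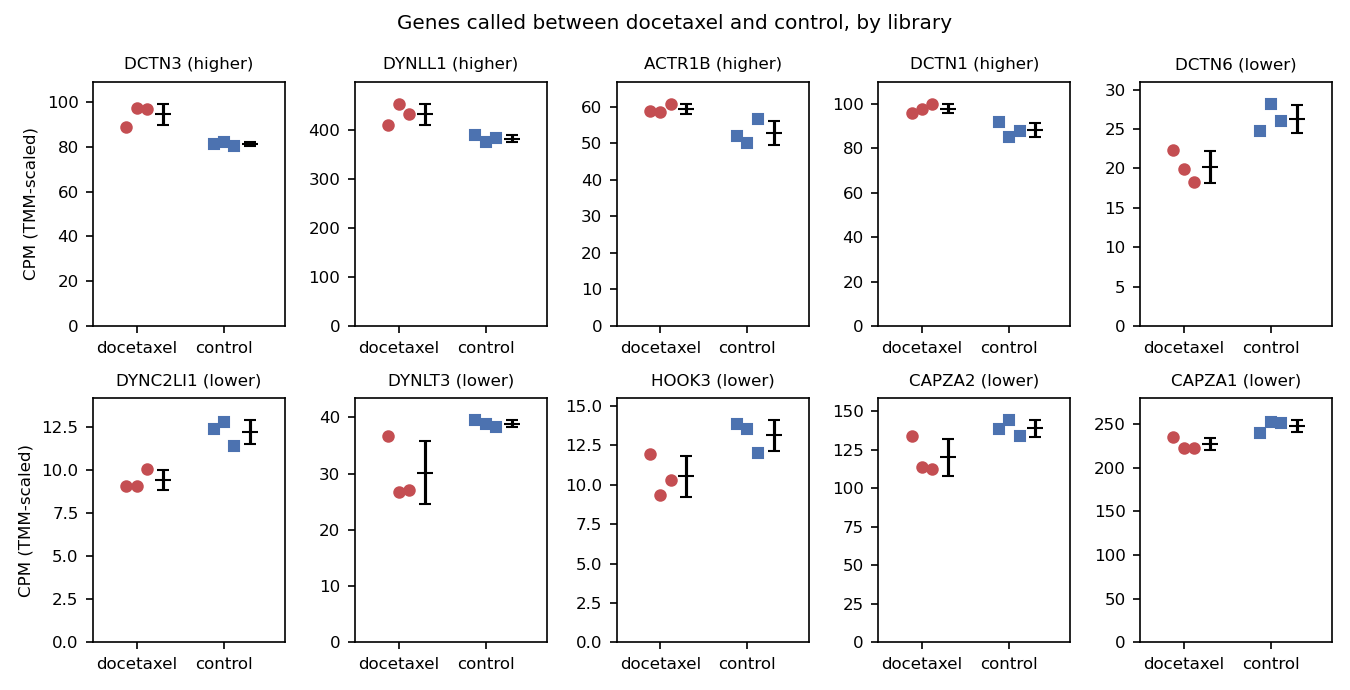
CPM of the 10 called genes in each library, docetaxel left of control, every point 1 library and the bar the mean with its SD (n = 3 each); each panel has its own axis starting at 0. Docetaxel replicate 1 of DYNLT3 (36.8 CPM) and CAPZA2 (134 CPM) lies apart from the other 2 docetaxel libraries and near the controls, and CAPZA2 is the 1 gene whose groups overlap.

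Of the 6 cargo adaptors, 1 was called, which is 16.7%, beside 17.0% of all tested genes. HOOK3, which links dynein to endosomes and other organelles (chromosome 8, 42896932 to 43030539, plus strand), had 11.9, 9.34 and 10.3 CPM in docetaxel libraries, against 13.8, 13.5 and 12.02 CPM in control libraries. The highest docetaxel value lay just under the lowest control value, and it fell to 0.802-fold, or -0.32 ± 0.113 (SE) on the log2 scale (edgeR adjusted p = 0.0481). The call was lost without control replicate 1 or 2 or docetaxel replicate 2 or 3, with adjusted p values between 0.154 and 0.213, and with offsets (log2 fold change -0.11, adjusted p = 0.718). BICD1 and BICD2, which tie dynein to Golgi vesicles and the nuclear envelope, were at 0.910-fold (0.799 to 1.04) and 0.919-fold (0.832 to 1.02). BICD2 was called lower with offsets when docetaxel replicate 1 was also left out (edgeR adjusted p = 0.0386), but not with all libraries (adjusted p = 0.0977). HOOK1 was at 0.904-fold (0.792 to 1.03). HOOK2, a centrosomal Hook protein whose exons partly overlap JUNB on the other strand, was at 1.05-fold (0.954 to 1.15). Spindly, from SPDL1, brings dynein to kinetochores, and its gene had 71.1, 65.1 and 62.8 CPM in docetaxel libraries and 69.5, 74.9 and 66.5 CPM in control libraries, at 0.944-fold (0.870 to 1.02, edgeR adjusted p = 0.379). Groups overlapped for all 5 genes that were not called.

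The LIS1 and NDE regulators were not called without offsets. PAFAH1B1, which encodes LIS1, had 135, 150.5 and 142 CPM in docetaxel libraries and 144, 141 and 143 CPM in control libraries, at a log2 fold change of 0.00 (0.938- to 1.07-fold, edgeR adjusted p = 0.994). With offsets it was 0.15 (edgeR adjusted p = 0.0498), a call that was lost without every library in turn except docetaxel replicate 1, with adjusted p values between 0.0999 and 0.307. NDE1 was at 1.12-fold (0.977 to 1.28, edgeR adjusted p = 0.286) and NDEL1 at 1.02-fold (0.938 to 1.11, edgeR adjusted p = 0.811), with overlapping groups in both.

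The direction of change followed the base composition of the genes. The 4 genes called higher had 51.3% to 59.5% GC in their longest transcript (median 53.6%), and the 6 called lower had 34.6% to 42.4% (median 38.4%), so the 2 sets do not overlap. Over the 31 well-counted genes the log2 fold change and GC content had Pearson's r = 0.77 and Spearman's rho = 0.78, as a description across genes that share the same 6 libraries. With offsets, which are built to remove such a trend over all genes, r was 0.10 and rho 0.14. Over the whole table the same order held. In the lowest of 5 equal bins of GC content, up to 41.3%, 28.8% were called lower and 0.183% higher, and 5 of the 12 genes of the set there were lower. In the second bin 10.1% were called lower and 0.761% higher, and 1 of 7 genes of the set, CAPZA1, was lower. In the middle bin 3.65% were called higher and 2.86% lower, and 1 of 4 genes of the set, DCTN3, was higher. In the 2 highest bins, 13.6% and 31.6% of all genes were called higher, as were 2 of 8 and 1 of 2 genes of the set. The part that base composition has in these changes was not tested beyond the offsets.

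**Figure D4:**
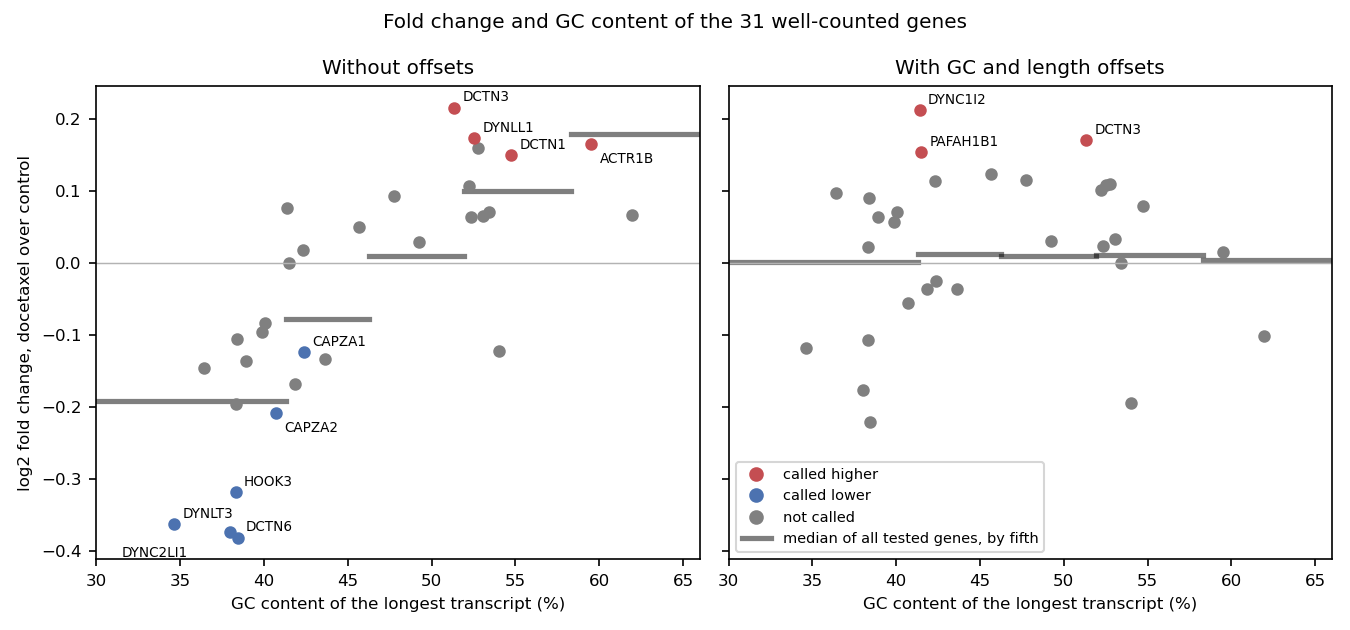
The log2 fold change of docetaxel over control against GC content of the longest transcript for the 31 well-counted genes, without offsets (left) and with GC and length offsets (right), each point 1 gene coloured by call, with grey bars for the median of all tested genes in each of 5 equal bins of GC content. Without offsets the 6 genes called lower lie at 34.6% to 42.4% GC and the 4 called higher at 51.3% to 59.5%, and with offsets the medians lie near 0.

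The stretches before the transcription start are shown for 5 of the called genes with a single RefSeq start, to let the genes on either side be compared. Promoter entries matched 30 of the 34 genes. The sequences are from RefSeq (GRCh38.p14), 5′ to 3′ on the gene's own strand, and are cut where an exon of GENCODE release 29 begins. Capitals mark matches, on either strand, to CCAAT (NF-Y box), TGANTCA (AP-1 site), GGGCGG (Sp1 GC box), CCGGAAG (ETS site) and TTTGAA (CHR element). DCTN3 is chr9:34620524-34620745 and ACTR1B chr2:97664108-97664294, both minus strand, from genes called higher. DYNLT3 is chrX:37847638-37847821, minus strand, CAPZA2 chr7:116862337-116862472, plus strand, and DYNC2LI1 chr2:43773789-43774038, plus strand, from genes called lower. The CAPZA2 stretch precedes the RefSeq start but lies inside the gene as annotated in GENCODE release 29, which begins further upstream.
DCTN3: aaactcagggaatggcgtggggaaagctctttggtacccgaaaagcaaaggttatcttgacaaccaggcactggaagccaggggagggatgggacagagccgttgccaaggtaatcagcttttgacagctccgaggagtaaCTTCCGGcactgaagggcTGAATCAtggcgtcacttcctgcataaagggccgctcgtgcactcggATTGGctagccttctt
ACTR1B: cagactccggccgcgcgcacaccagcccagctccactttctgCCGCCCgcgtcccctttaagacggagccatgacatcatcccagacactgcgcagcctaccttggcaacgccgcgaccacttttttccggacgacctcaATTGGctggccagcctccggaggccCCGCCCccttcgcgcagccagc
DYNLT3: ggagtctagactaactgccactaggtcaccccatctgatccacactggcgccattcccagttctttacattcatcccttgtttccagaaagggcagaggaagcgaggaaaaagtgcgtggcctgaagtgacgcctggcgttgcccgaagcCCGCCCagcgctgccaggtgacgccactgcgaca
CAPZA2: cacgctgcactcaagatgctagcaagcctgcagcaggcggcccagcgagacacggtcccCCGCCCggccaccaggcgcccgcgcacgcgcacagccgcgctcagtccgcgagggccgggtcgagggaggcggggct
DYNC2LI1: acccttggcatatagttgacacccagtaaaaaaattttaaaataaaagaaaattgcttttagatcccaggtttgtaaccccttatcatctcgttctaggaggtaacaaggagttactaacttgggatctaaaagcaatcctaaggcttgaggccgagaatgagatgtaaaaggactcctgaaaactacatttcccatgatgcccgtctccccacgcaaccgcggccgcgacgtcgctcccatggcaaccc
In the full 250 bases before the start, DCTN3 holds 1 match each to the NF-Y, AP-1, Sp1 and ETS motifs, and ACTR1B 2 NF-Y and 3 Sp1 matches. DYNLT3 and CAPZA2 hold 1 Sp1 match each, and DYNC2LI1 holds none of the 5 motifs in this window. CAPZA1, also called lower and with 1 start, holds 1 match each to the NF-Y, Sp1 and CHR motifs. No bases of it were left to show after the cut. Of the 3 starts of DCTN1, called higher, that with the window chr2:74391867-74392116 has 3 Sp1 matches, and the rest hold none of the 5 motifs. Each window of DYNLL1, called higher, holds 2 Sp1 matches, and chr12:120495863-120496112 also 2 NF-Y matches. Over all 35116 promoters of that length, 32.0% hold the NF-Y motif, 6.57% the AP-1 motif, 42.6% the Sp1 motif, 8.52% the ETS motif and 13.3% the CHR motif. GC content of the 250 bases ran from 54.8% to 75.2% in the 4 genes called higher and from 45.2% to 78.4% in the 4 genes called lower that have an entry, so upstream of the start the 2 sets overlap, unlike in their transcripts.

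Several of these genes come in related pairs. The share of each in its pair does not depend on how libraries are scaled, though it can depend on gene length and base composition. The pair of DYNC1H1 and DYNC2H1 encodes the heavy chains of separate motors, not alternatives within 1 motor. Of 10 pairs, 9 had enough reads to compare. DYNLT1 made up 55.8%, 60.8% and 62.9% of the length-scaled reads of DYNLT1 and DYNLT3 in docetaxel libraries, against 52.3%, 54.6% and 52.5% in control libraries. The means were 59.8% ± 3.66 and 53.1% ± 1.25 (SD, n = 3 each), with no overlap between groups (two-sided exact permutation test, p = 0.1, the smallest that 3 against 3 allows; 0.36 adjusted over the 9 pairs). DYNC1H1 made up 84.3%, 82.1% and 84.0% of DYNC1H1 and DYNC2H1 in docetaxel libraries, against 81.8%, 78.9% and 80.4% in control libraries, also without overlap (exact permutation p = 0.1). On raw counts, not divided by length, the difference between the group means was 1.52 percentage points for this pair instead of 3.10, and 6.77 instead of 6.72 for the DYNLT pair. The genes of these pairs moved closer with GC and length offsets, to log2 fold changes of 0.10 for DYNC1H1 and 0.02 for DYNC2H1, instead of 0.11 and -0.20. Likewise DYNLT1 and DYNLT3 were at 0.11 and -0.12 with offsets, instead of 0.02 and -0.36. In the other 7 pairs the groups overlapped. DYNLL1 held 92.1% ± 0.383 of the LC8 pair with docetaxel and 91.7% ± 0.564 in controls, CAPZA1 held 81.9% ± 1.01 of the capping α pair with docetaxel and 80.9% ± 0.675 in controls, and ACTR1A 60.3% ± 0.704 of the Arp1 pair with docetaxel and 61.9% ± 1.13 in controls (SD, n = 3 each).

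**Figure D5:**
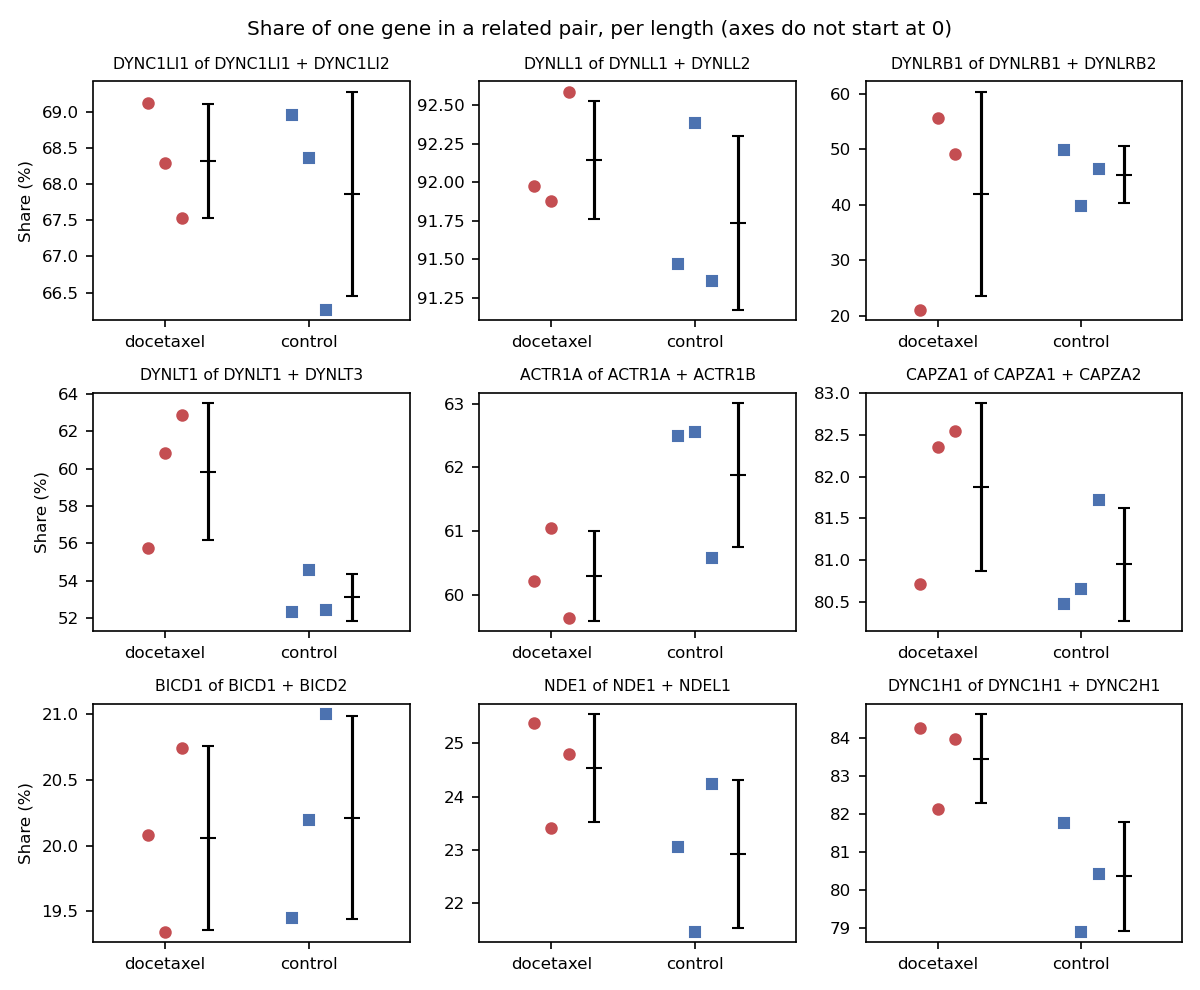
Share of the first gene in the length-scaled reads of each compared gene pair, in percent, with docetaxel points left of control points and every point 1 library and the black mark the mean with its SD (n = 3 each); axes do not start at 0. In DYNLT1 with DYNLT3 and in DYNC1H1 with DYNC2H1 all 3 docetaxel libraries lie above all 3 control libraries, and the other 7 pairs overlap.

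Other dynein genes, 51 in all, were listed by function, with earlier results of these data known. Of 45 tested, 4 were higher and 3 lower, which is 15.6%, against 17.0% of all tested genes. Among 29 tested adaptors and partners, CCDC88B, a Hook-related protein (log2 fold change 0.35, adjusted p = 0.0121), NUMA1, which anchors dynein at the cell cortex and spindle poles (0.21, adjusted p = 0.0168), and NUDC, a LIS1-associated chaperone (0.14, adjusted p = 0.0273), were higher (edgeR quasi-likelihood test). RAB6A, the Golgi GTPase that recruits BICD proteins (log2 fold change -0.25, adjusted p = 0.00102), CCDC88A (-0.28, adjusted p = 0.0274) and CLIP1, a plus-end tracking protein that binds p150Glued (-0.21, adjusted p = 0.0378), were lower in the same edgeR test. DYNC2I2, an intermediate chain of dynein-2, had 291, 290 and 293 CPM in docetaxel libraries, against 255, 236 and 258 CPM in control libraries (log2 fold change 0.22, edgeR adjusted p = 0.000382). It moved opposite to DYNC2LI1 of the same motor, and both changes were smaller with offsets, at 0.02 for DYNC2I2 and -0.18 for DYNC2LI1. The calls of RAB6A and DYNC2I2 held without each library in turn. Those of CCDC88B, NUMA1, NUDC, CCDC88A and CLIP1 were each lost without docetaxel replicate 2 and without at least 2 other libraries, at adjusted p values between 0.0599 and 0.335. Without control replicate 2 the log2 fold change of CCDC88A was -0.14, and without docetaxel replicate 2 that of NUDC was 0.08. Of 18 axonemal dynein chains, which drive ciliary beating, 13 were tested and 0 were called by edgeR, beside 17.0% of all tested genes. The 18 genes averaged 0 to 14.8 TPM, and log2 fold changes of the 13 ran from -0.67 to 1.03. The absence of calls therefore does not show that they were unchanged. The number with an unadjusted p under 0.05 was also 0, and DESeq2 and limma-voom called 0. DESeq2 gave an adjusted p for only 11743 of the 18040 tested genes. With offsets, 1 of the 45 genes was called, CENPF, a kinetochore protein that binds NDE1 and NDEL1 (log2 fold change 0.18, edgeR adjusted p = 0.00233), and that call was lost without control replicate 2 (adjusted p = 0.0823).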

How the data were processed

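Poly(A) RNA of 6 libraries was sequenced, and the authors deposited raw counts of reads per gene beside a length column, in 1 table. Per the submitters' processing notes, featureCounts 2.0.1 and GRCh38 were used. The sources used here name no aligner, annotation release or strand setting, nor how multi-mapping reads were treated. Columns were assigned by the library names in the labels. Symbols were found for 61481 of 78932 rows, and coordinates, exons and GC content came from GENCODE release 29, with GC for 91% of tested genes. edgeR 4.0.16 (filterByExpr, TMM, robust quasi-likelihood fit, two-sided, no block) was run on all 18040 genes kept, with Benjamini-Hochberg adjustment over them, and was tested on simulated data. The simulated counts had 1 fixed dispersion and no GC trend, so they do not test the calls under the trend seen here. CPM are TMM-scaled, except means over 6 libraries and marker sums, which use total counts, and TPM use the table's lengths. Offsets were loess fits (span 0.5) of each library's deviations on GC content and length. Alternatives were other scalings and filters, DESeq2 1.42.0, limma-voom 3.58.1, a replicate block and leaving out libraries. Paralog shares used exact permutation tests. All members are named, with full statistics for those called or not overlapping; from the other dynein lists those called are named, up to 8 by smallest p. Members and lists were chosen with earlier results of these data known, and CENPF was named after its values were seen. Pairs of libraries within a group differed by more than sampling noise (dispersion index 4.92 to 12.7), so none was counted as a duplicate. Intervals cover the spread between these libraries.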

Additional observations from a re-analysis of the deposited data

How the results depend on the processing

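Of the genes of the set, 4 were called higher and 6 lower. The counts were 2 higher with library-size scaling, without a filter on low counts, with the replicate block and with the block and offsets, and 0 lower with offsets and with the block and offsets. Leaving out 1 library gave 2 to 3 higher and 1 to 7 lower, with 2 higher and 1 lower without control replicate 2, 2 and 2 without docetaxel replicate 2 and likewise without docetaxel replicate 3, and 2 and 7 without docetaxel replicate 1. With offsets and 1 library left out, added after the data were seen, there were 0 to 5 higher and 0 to 3 lower, the highest counts without docetaxel replicate 1.

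Over all genes, 1649 were higher and 1410 lower. Higher calls were 1096 with library-size scaling, 446 with offsets and 323 with block and offsets, and lower calls 323 with offsets and 234 with block and offsets. Library-size scaling gave 1096 higher and 1866 lower, and upper-quartile scaling 1853 and 1266. Leaving out 1 library gave 990 to 1397 higher and 740 to 1841 lower, and with offsets 129 to 637 higher and 93 to 494 lower. Of other dynein genes, 4 higher and 3 lower became 2 higher with library-size scaling, 1 higher with offsets and with block and offsets, and 1 lower with the block, 0 with offsets and 0 with block and offsets. Without 1 library they were 1 to 4 higher and 1 to 4 lower, and with offsets 0 to 1 higher and 0 lower.

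Signs turned only in genes that were not called without offsets. With offsets the log2 fold changes became 0.0901 for DYNC1LI1, 0.0222 for DYNC2H1, 0.0572 for ACTR10, 0.0637 for BICD1, 0.0971 for HOOK1, -0.101 for HOOK2 and 0.0711 for SPDL1, and with block and offsets 0.0906, 0.0197, 0.0567, 0.0648, 0.0975, -0.102 and 0.0710 in the same order. Library-size scaling gave -0.0199 for DYNLT1, -0.0380 for PAFAH1B1 and -0.00828 for NDEL1. PAFAH1B1 was -0.00862 with RLE scaling and with DESeq2, -9.76e-05 with no filter, -0.000469 with the block and -0.000599 with limma-voom. Without 1 library in turn, DYNLRB1 ran from -0.260 to 0.766, DYNLT1 from -0.0303 to 0.0601, HOOK2 from -0.00108 to 0.107, PAFAH1B1 from -0.0500 to 0.0185 and NDEL1 from -0.00942 to 0.0771. The difference in share, docetaxel minus control, ran from -0.337 to 1.01 percentage points for DYNC1LI1 in its pair, -10.3 to 6.93 for DYNLRB1 and -0.540 to 0.236 for BICD1. The cause of these changes was not tested.

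Same-numbered libraries did not deviate together (correlations -0.0582 to 0.0168). That cannot show whether they shared a culture or day, which the labels do not say. The replicate block gave 1283 higher and 1106 lower calls over all genes and 2 higher and 4 lower in the set. Depth limits DYNLRB1 and DYNLRB2, whose intervals reach 3.03- and 3.14-fold.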
